A study of Mus musculus with 9 samples.

Results

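The genes described here are 40 immediate-early and heat shock genes. Many of them are known as transcripts that cells switch on within minutes of a stimulus or of being handled. They were taken by symbol from a list of 34 immediate-early and early feedback genes and 6 heat shock genes, and kept where at least 10 normalized counts were reached in at least 3 of 9 libraries. All 40 were in the deposited table and all 40 passed, among 14404 genes that passed of 42454 listed. Because each passed in every genotype, the filter removed no member.

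The RNA came from macrophages of the colon lamina propria of mice aged 6 weeks, sorted as Ly6C low and MHC class II positive. There were 3 libraries each of wild type (WT) mice, of p47phox-/- mice and of gp91phox-/- mice. p47phox, encoded by Ncf1, and gp91phox, encoded by Cybb, are subunits of the NADPH oxidase with which phagocytes make superoxide, and the series title concerns reactive oxygen species in the development of these cells. The labels give no strain, sex, treatment or pooling, and do not describe how the tissue was dissociated. Replicate numbers name libraries within a genotype, and values are listed below in the order of replicates 1, 2 and 3.

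Immediate-early genes are transcribed from promoters that are already poised, through factors such as SRF, CREB and AP-1 that kinases activate, so they need no new protein. Many of their products, such as FOS, EGR1 and the dual-specificity phosphatases, either pass the signal on to other genes or shut it off. Heat shock genes encode chaperones and are driven by HSF1 when proteins unfold. Both classes are known to be induced by warm enzymatic digestion of tissue, and macrophages also use the immediate-early class in ordinary activation, so a level in sorted cells cannot be told apart into a part present in the tissue and a part acquired during isolation.

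The promoter letters through which these inputs are known to act were searched in windows from 250 bases before to 50 after the RefSeq start (GRCm38.p6). Windows were matched by symbol for 33 of the 40 members. Those not matched were Fosl1, Egr1, Egr3, Ier2, Myc, Dusp4 and Hsp90aa1. On either strand, 2 adjoining heat shock element units (GAANNTTC or TTCNNGAA) were found in 4 of 5 heat shock members with a window, in 3 of 28 other members (Egr2, Fosl2 and Jun) and in 17.0% of all genes with a window. The 3-unit form (GAANNTTC and then NNGAA), which contains the 2-unit form, was found only in Hsph1 among the members and in 0.662% of genes. In Hsph1 the 3-unit form began at base 16 or 37 after the start, depending on the RefSeq start. The stretches below are from before the start, so that of Hsph1 holds a 2-unit match only. Dnajb1, the other heat shock member with a window, had no match. The stretches are shown for the 4 heat shock members with a match, with the units in capitals, 5′ to 3′ on the strand of the gene. They are Hspa1a (chr17:34972233-34972280, minus strand), Hspb1 (chr5:135887782-135887849, plus strand) and Hsph1 (chr5:149636354-149636377, minus strand, inside an annotated GENCODE exon). The stretch of Hspa1b (chr17:34959315-34959362, minus strand) reads the same as that of Hspa1a.
Hspa1a: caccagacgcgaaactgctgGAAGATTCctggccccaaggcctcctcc
Hspb1: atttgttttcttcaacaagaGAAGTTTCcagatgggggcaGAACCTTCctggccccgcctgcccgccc
Hsph1: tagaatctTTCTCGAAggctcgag

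For the other members, the CArG box bound by SRF was found in Dusp5, Egr2 and Zfp36 (3 of 28, against 1.81% of genes). The cAMP response element (TGACGTCA) was found in Btg2, Dusp1 and Maff (3 of 28, against 2.03% of genes). The AP-1 site (TGACTCA) was found only in Csrnp1 (1 of 28, against 5.95% of genes). Shown are the stretches of the 4 members called higher in gp91phox-/- that hold a cAMP response element or a CArG box, with that motif in capitals. They are Btg2 (chr1:134079294-134079341, minus strand), Maff (chr15:79347471-79347518, plus strand), Egr2 (chr10:67537474-67537523, plus strand) and Zfp36 (chr7:28379269-28379294, minus strand, inside an annotated exon). A match describes the letters and says nothing of a factor's binding.
Btg2: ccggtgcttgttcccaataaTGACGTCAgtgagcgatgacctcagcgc
Maff: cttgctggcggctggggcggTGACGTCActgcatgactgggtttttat
Egr2: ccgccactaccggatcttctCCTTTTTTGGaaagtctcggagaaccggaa
Zfp36: aggccgccCCATAAAAGGagaaagct

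Libraries held 31141107 to 52797368 reads on genes. At similar depth, p47phox-/- replicates 2 and 3 had reads on 14323 and 14268 genes, against 15825 to 18760 in the other 7 libraries, so calls in comparisons with p47phox-/- are also given with both left out. Ncf1 had 9957 ± 918 normalized counts in WT, 13040 ± 793 in gp91phox-/- and 3195 ± 510.4 in p47phox-/- (SD, n = 3), and fell in the last (log2 fold change -1.65, limma adjusted p = 0.000348). Cybb was listed at 0 in every library, so the gp91phox-/- labels could not be checked on their target. All 12 macrophage markers passed the filter, with summed levels of 591748 to 902251 normalized counts, against 6626 to 48352 for 12 B and plasma cell markers and 7005 to 18591 for 12 fibroblast and smooth muscle markers, whose levels by genotype are given with the calls. Of 10 neutrophil markers, 4 passed the filter, and the 10 summed to 4038 to 6151 normalized counts, with the granule genes Camp and Ngp at 0 in every library. In bulk RNA, fewer cells of a type and less RNA per cell cannot be told apart.

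The members were abundant in every library. They took 2.11% (WT replicate 2) to 4.05% (gp91phox-/- replicate 1) of all reads on genes. The 34 immediate-early members took 1.64 to 2.34% and the 6 heat shock members 0.449 to 1.71%, so the chaperones varied more. On a scale of reads per kilobase of merged GENCODE exon, brought to the same total in each library, 5 members were among the 100 highest genes of WT and 27 among the 500 highest. The 5 were, from the highest level, Hspa1b (3369 ± 1545, SD, n = 3), Jund (3090 ± 667), Junb (2756 ± 95.1), Hspa1a (2259 ± 1009) and Hsp90aa1 (2157 ± 884), whose neighbours in this order differed by less than their spread. Lowest on the same length-scaled level were the transcription factors Egr2, Fosl1 and Egr3, at means of 19.0 to 32.0. The sources used here do not give the strand that was counted, so reads of Junb and Dusp1 cannot be told apart from those of Prdx2 and Ergic1 where exons on opposite strands overlap, nor those of Fosl1 from Ccdc85b.

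**Figure D1:**
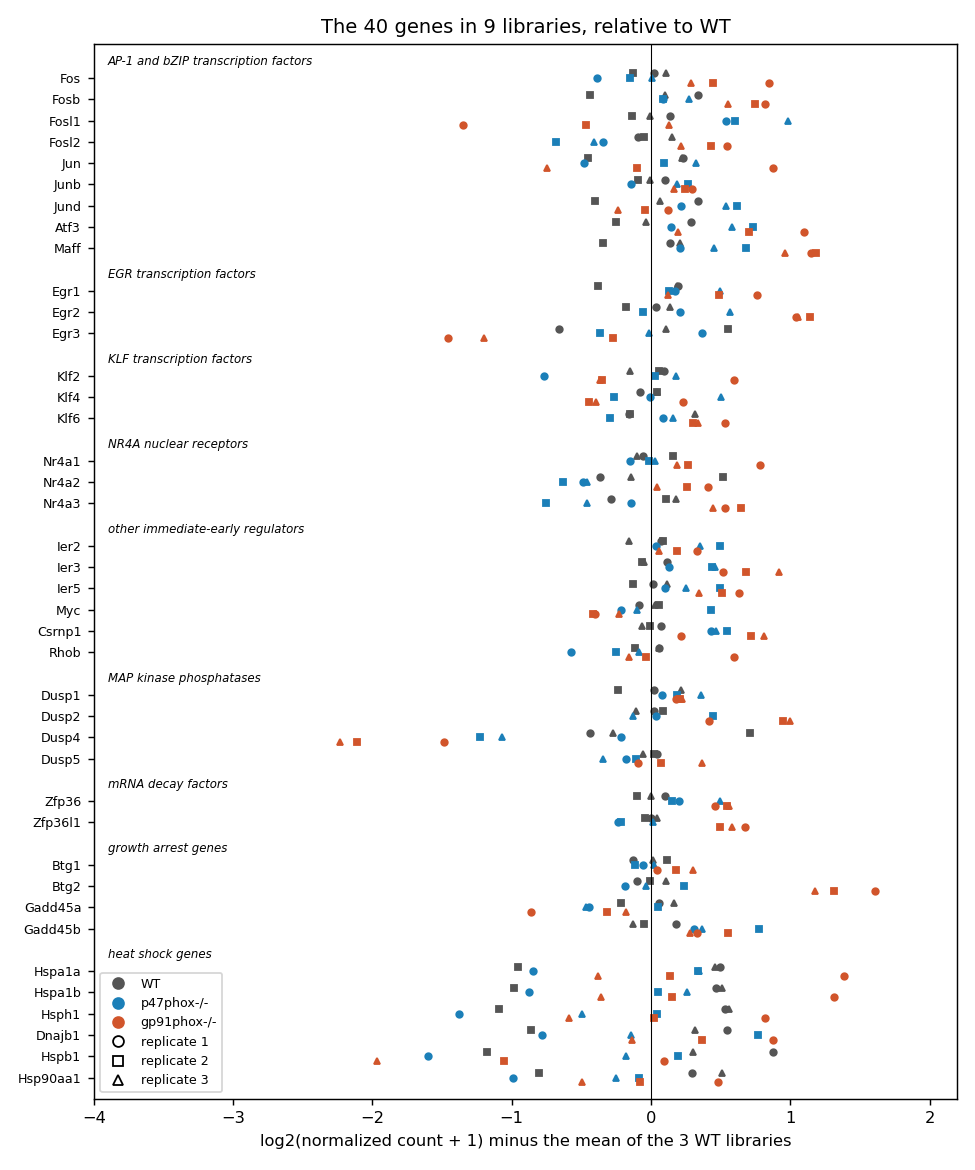
Each of the 40 members (rows) in each of 9 libraries (points, coloured by genotype and shaped by replicate number), as log2(normalized count + 1) minus the mean of the 3 WT libraries. The heat shock members spread widely within every genotype, while the gp91phox-/- points of Btg2, Maff and Egr2 lie to the right of all WT points and those of Dusp4 to the left.

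The comparisons were p47phox-/- versus WT and gp91phox-/- versus WT, which share the WT libraries, and gp91phox-/- versus p47phox-/-, which also tests whether the knockouts' differences from WT differ. Calls are at an adjusted p under 0.05 over all 14404 genes (limma, Benjamini-Hochberg), and fold changes are on the log2(normalized count + 1) scale. In p47phox-/- versus WT, 0 of 40 members were called, where 1.12% of all genes were called, 0.625% higher and 0.5% lower. Their median log2 fold change was -0.01, against -0.02 for all genes. At an unadjusted p under 0.05 there were 10 members, 6 higher and 4 lower (25% of members against 15% of all genes). On reads recovered from the deposited values, edgeR called 0 members and DESeq2 called Fosl2, as lower. Without p47phox-/- replicates 2 and 3 the limma count was also 0, with calls over all genes going from 162 to 16.

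In gp91phox-/- versus WT, 10 of 40 members were called, 9 higher and 1 lower, where 7.05% of all genes were called, 2.53% higher and 4.53% lower. The members' median log2 fold change was 0.37, against 0.01 for all genes. All 10 were among the 34 immediate-early members. The 12 fibroblast and smooth muscle markers moved with these groups, with summed levels of 7005 to 9196 normalized counts in WT, 10062 to 12121 in gp91phox-/- and 11953 to 18591 in p47phox-/-. Of these markers 2 rose in gp91phox-/- versus WT (Sparc and Acta2) and 3 in p47phox-/- versus WT (Col3a1, Sparc and Acta2), and their part in the members' levels was not tested. B cell and dendritic cell markers also differed in gp91phox-/-, with values given beside Dusp4. In gp91phox-/- versus p47phox-/-, 10 members were again called, 9 higher and 1 lower, where 9.93% of all genes were called, 3.97% higher and 5.96% lower. The median was 0.28 for the members and 0.02 for all genes, which TMM scaling moved to 0.11. In these comparisons the count was 6 without replicate 2 or 3 of WT or replicate 3 of gp91phox-/- in the first, and 6 without replicate 1 or 3 of p47phox-/- or replicate 2 of gp91phox-/- in the second. Without p47phox-/- replicates 2 and 3 the second count was 3 (Egr2, Zfp36l1 and Btg2), with 1 library left in that group, assumed to vary like the other groups. The 7 calls lost there had adjusted p = 0.0668 to 0.249 in limma, and calls over all genes went from 1430 to 441. In gp91phox-/- versus WT the same setting, which changes the shared spread, left 10 called but ended the calls of Fosb (adjusted p = 0.0578) and Csrnp1 (0.051), while calls over all genes went from 1016 to 1497.

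Separation of the libraries followed the same lines. In gp91phox-/- versus WT, every gp91phox-/- library was above every WT library for 16 members and below for 2, where 15.1% of all genes were above and 18.2% below. In p47phox-/- versus WT the members without overlap were 5 above (Fosl1, Ier3, Csrnp1, Zfp36 and Gadd45b) and 3 below (Fosl2, Nr4a2 and Dusp5), where 9.25% of all genes were above and 8.49% below. The groups overlapped for all 6 heat shock members in both.

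**Figure D2:**
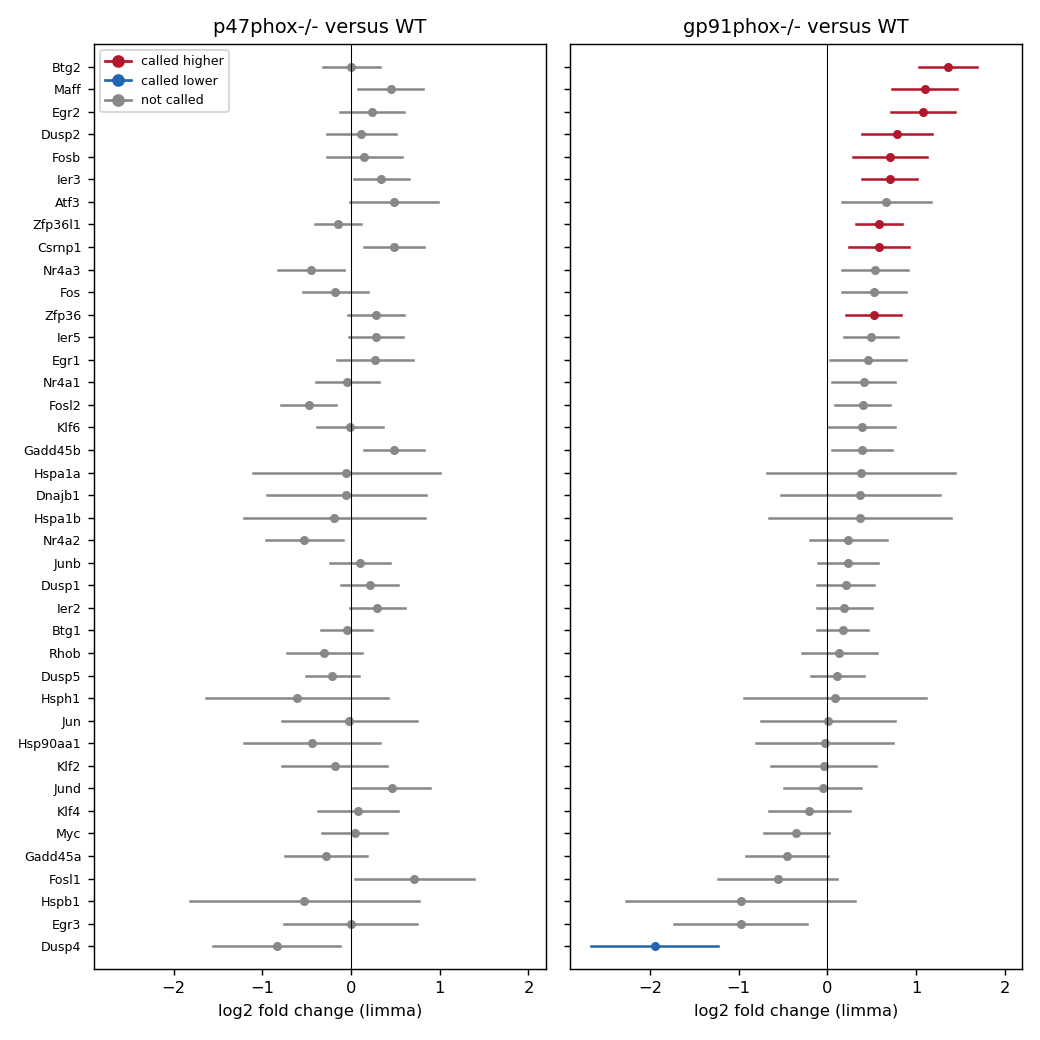
Log2 fold change of each member (rows, ordered by the right panel) in p47phox-/- versus WT and gp91phox-/- versus WT, with bars for the 95% interval from limma, red where called higher, blue where called lower and grey where not called. No member is called in the left panel, and 9 are called higher and 1 lower in the right.

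Btg2, an antiproliferative cofactor of mRNA deadenylation, had the greatest rise of the members in gp91phox-/-. Normalized counts were 6842, 7292 and 7893 in WT, 6428, 8616 and 7165 in p47phox-/- and 22301, 18177 and 16577 in gp91phox-/-. The gp91phox-/- libraries were all above the other 6, while WT and p47phox-/- overlapped. The rise was 2.57-fold over WT (log2 fold change 1.36, SE 0.15, limma adjusted p = 0.000161) and 2.57-fold over p47phox-/- (1.36, adjusted p = 0.000166). Both calls held in all 23 alternatives. The other growth arrest genes were not called in any comparison. Btg1, a relative of Btg2, had 27995 ± 2405 normalized counts in WT, 26972 ± 1270 in p47phox-/- and 31573 ± 2839 in gp91phox-/- (SD, n = 3). The stress sensors Gadd45a and Gadd45b, which bind MAP kinase kinase kinase MTK1, had log2 fold changes of -0.45 and 0.39 in gp91phox-/- versus WT (adjusted p = 0.243 and 0.17).

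Among the AP-1 and bZIP factors, Maff rose in gp91phox-/-. Maff encodes a small MAF protein, which has no activation domain of its own and pairs with partners such as NRF2. Its normalized counts were 5178, 3706 and 5427 in WT, 5425, 7565 and 6423 in p47phox-/- and 10441, 10716 and 9169 in gp91phox-/-. Every gp91phox-/- library was above the other 6, and the other genotypes overlapped narrowly. The rise over WT was 2.14-fold (log2 fold change 1.10, SE 0.17, limma adjusted p = 0.00187) and held in all 23 alternatives. The difference from p47phox-/- (0.65, adjusted p = 0.0295) was lost when replicate 1 or 3 of p47phox-/- or replicate 1 or 2 of gp91phox-/- was left out (adjusted p = 0.0768 to 0.106).

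The FOS proteins form AP-1 with JUN proteins, and the 4 genes that encode them did not move alike. Fosb had 54779, 31949 and 46439 normalized counts in WT, 45976, 46065 and 52366 in p47phox-/- and 76279, 72789 and 63417 in gp91phox-/-. The gp91phox-/- libraries were above all others, with WT replicate 2 the lowest. Fosb rose over WT by 1.63-fold (log2 fold change 0.71, limma adjusted p = 0.0473), but that call was lost without WT replicate 2 or 3, replicate 1 or 3 of p47phox-/- or any 1 replicate of gp91phox-/- (adjusted p = 0.0642 to 0.152). Fos had 23959, 21509 and 25455 in WT, 18052, 21215 and 23665 in p47phox-/- and 42467, 32184 and 28709 in gp91phox-/-. Again the gp91phox-/- libraries were the highest. Fos was called against p47phox-/- (log2 fold change 0.70, adjusted p = 0.0209) and not against WT (0.53, adjusted p = 0.0848). Its call was lost when replicate 1 of p47phox-/- or replicate 1 or 2 of gp91phox-/- was left out (adjusted p = 0.0513 to 0.0699), and with p47phox-/- replicates 2 and 3 both left out (0.0715).

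The FRA genes Fosl1 and Fosl2, late-acting members of the FOS family, went opposite ways between the knockouts. Fosl2 had 17099, 17588 and 20240 normalized counts in WT, 14390, 11403 and 13725 in p47phox-/- and 26703, 24614 and 21161 in gp91phox-/-. The 3 genotypes did not overlap, with p47phox-/- lowest and gp91phox-/- highest. Only the difference between the knockouts was called (log2 fold change 0.88, SE 0.14, limma adjusted p = 0.00255), and it was lost with p47phox-/- replicates 2 and 3 both left out (adjusted p = 0.0765). Fosl1, far lower, had 413, 341 and 373 in WT, 546, 571 and 743 in p47phox-/- and 146, 271 and 411 in gp91phox-/-. Its p47phox-/- libraries were above all others. It was lower in gp91phox-/- than in p47phox-/- by a log2 fold change of -1.27 (adjusted p = 0.0232), a call lost when replicate 3 of p47phox-/- or replicate 1 or 2 of gp91phox-/- was left out (adjusted p = 0.056 to 0.0774).

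The JUN genes and Atf3, a stress-induced repressor of inflammatory genes, were not called in any comparison. Jun had 17641 ± 4369 normalized counts in WT, 17465 ± 4688 in p47phox-/- and 19310 ± 11029 in gp91phox-/- (SD, n = 3), with log2 fold changes of -0.02 and 0.01 against WT (95% intervals -0.78 to 0.74 and -0.75 to 0.77). Junb had 58457 ± 3970, 63183 ± 9143 and 68594 ± 3033 in the same order, and Jund 47686 ± 11803, 64652 ± 9187 and 45239 ± 5531. Atf3 had 12758 ± 2457, 17889 ± 3628 and 20619 ± 6282, a log2 fold change of 0.66 in gp91phox-/- versus WT (limma adjusted p = 0.112).

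The zinc finger factor Egr2, which acts in macrophage and lymphocyte differentiation, was the called member of its family in gp91phox-/- versus WT, and whether its change differs from those of Egr1 and Egr3 was not tested. Normalized counts of Egr2 were 1025, 881 and 1099 in WT, 1150, 959 and 1477 in p47phox-/- and 2058, 2206 and 2074 in gp91phox-/-. The gp91phox-/- libraries were close together and above the other 6. Egr2 rose 2.12-fold over WT (log2 fold change 1.08, SE 0.17, limma adjusted p = 0.00187) and 1.79-fold over p47phox-/- (0.84, adjusted p = 0.0076), both in all 23 alternatives. Egr1, the most studied of the family, had 9359 ± 1986, 11140 ± 1580 and 12852 ± 2811 in WT, p47phox-/- and gp91phox-/- (SD, n = 3; 0.46 in gp91phox-/- versus WT, adjusted p = 0.198). Egr3 had 762 ± 299.9, 733 ± 186 and 390.1 ± 180 in that order, with a log2 fold change of -0.98 in gp91phox-/- versus WT (adjusted p = 0.118). The KLF genes, zinc finger factors that in macrophages temper (Klf2, Klf4) or promote (Klf6) inflammatory genes, were not called. Their log2 fold changes in gp91phox-/- versus WT were -0.04 for Klf2, -0.20 for Klf4 and 0.39 for Klf6.

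The NR4A genes encode orphan nuclear receptors whose activity is set largely by how much is made. Nr4a3 had 5264, 6938 and 7271 normalized counts in WT, 5825, 3816 and 4679 in p47phox-/- and 9270, 10065 and 8740 in gp91phox-/-. The gp91phox-/- libraries were above all others, and the WT and p47phox-/- libraries overlapped. Nr4a3 was 1.99-fold higher in gp91phox-/- than in p47phox-/- (log2 fold change 0.99, SE 0.17, limma adjusted p = 0.00336), a call lost with p47phox-/- replicates 2 and 3 both left out (adjusted p = 0.114). Against WT it was not called in either knockout (-0.45, adjusted p = 0.238, and 0.54, adjusted p = 0.0818). Nr4a2 had 1602, 2959 and 1870 in WT, 1473, 1336 and 1506 in p47phox-/- and 2751, 2482 and 2130 in gp91phox-/-. The WT libraries spanned the gp91phox-/- ones, and all p47phox-/- libraries were below both. Between the knockouts Nr4a2 differed by a log2 fold change of 0.76 (adjusted p = 0.0316), which was lost without any 1 library of p47phox-/-, or replicate 1 or 2 of gp91phox-/- (adjusted p = 0.0549 to 0.108). Nr4a1 had 17477 ± 1739, 16917 ± 1086 and 23541 ± 5544 in WT, p47phox-/- and gp91phox-/- (SD, n = 3) and was not called.

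Both mRNA decay factors, which bind AU-rich elements and shorten the life of cytokine and immediate-early transcripts, rose in gp91phox-/-. Zfp36l1 had 11279, 10972 and 11642 normalized counts in WT, 9599, 9733 and 11414 in p47phox-/- and 17986, 15891 and 16938 in gp91phox-/-. The gp91phox-/- libraries stood clear of the other 6. Zfp36l1 rose 1.50-fold over WT (log2 fold change 0.58, SE 0.12, limma adjusted p = 0.0114) and 1.66-fold over p47phox-/- (0.73, adjusted p = 0.00267), both in all 23 alternatives. Zfp36, which encodes tristetraprolin, had 40127, 34847 and 37351 in WT, 42873, 41565 and 52731 in p47phox-/- and 51434, 54514 and 55099 in gp91phox-/-. Both knockouts were above WT in every library, and p47phox-/- replicate 3 lay within the gp91phox-/- range. Zfp36 rose in gp91phox-/- by 0.52 on the log2 scale (adjusted p = 0.0495). This call was lost without any 1 library other than p47phox-/- replicate 2 (adjusted p = 0.0522 to 0.16).

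Of the 4 dual-specificity phosphatases, which switch MAP kinases off, Dusp2 rose and Dusp4 fell in gp91phox-/- versus WT, and Dusp1 and Dusp5 were not called. Dusp2, which acts on ERK and p38, had 7396, 7706 and 6744 normalized counts in WT, 7450, 9887 and 6657 in p47phox-/- and 9718, 14034 and 14497 in gp91phox-/-. All gp91phox-/- libraries were above WT, and replicate 1 lay below p47phox-/- replicate 2. Dusp2 rose 1.73-fold over WT (log2 fold change 0.79, limma adjusted p = 0.0205) and differed from p47phox-/- by 0.67 (adjusted p = 0.0359). The first call was lost without any 1 library of WT, or replicate 2 or 3 of gp91phox-/- (adjusted p = 0.0513 to 0.0964). The second was lost without replicate 1 or 3 of WT or of p47phox-/-, or replicate 2 or 3 of gp91phox-/- (adjusted p = 0.0532 to 0.134).

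Dusp4, another nuclear phosphatase of ERK and JNK, was the member that fell in gp91phox-/- versus WT. Normalized counts were 1290, 2861 and 1447 in WT, 1507, 746 and 833 in p47phox-/- and 622, 403 and 370.3 in gp91phox-/-. The gp91phox-/- libraries were the lowest of the 9 and WT replicate 2 the highest. Dusp4 fell to 0.26 of its WT level (log2 fold change -1.95, SE 0.33, limma adjusted p = 0.00362), and did so in all 23 alternatives. Against p47phox-/- it was not called (-1.11, adjusted p = 0.0534), but was in 7 of 23 alternatives. Markers of B and plasma cells moved with it. Of the 12, 10 fell in gp91phox-/- versus WT, all but Xbp1 and Tnfrsf17, and the median log2 fold change of the 12 was -7.65. The sums, which include the 2 not called, fell less steeply. They were 24283 to 48352 normalized counts in WT, 24481 to 30468 in p47phox-/- and 6626 to 8687 in gp91phox-/-, with the highest in WT replicate 2. The 10 conventional dendritic cell markers summed to 5033 to 8661 in WT, 6048 to 7620 in p47phox-/- and 2353 to 3067 in gp91phox-/-, with 4 falling in gp91phox-/- versus WT. WT replicate 2 was also highest for Egr3 and Nr4a2. The part of these cells in any of these levels was not tested. Dusp1 and Dusp5, not called in any comparison, had log2 fold changes of 0.21 and 0.11 in gp91phox-/- versus WT (adjusted p = 0.468 and 0.69).

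**Figure D3:**
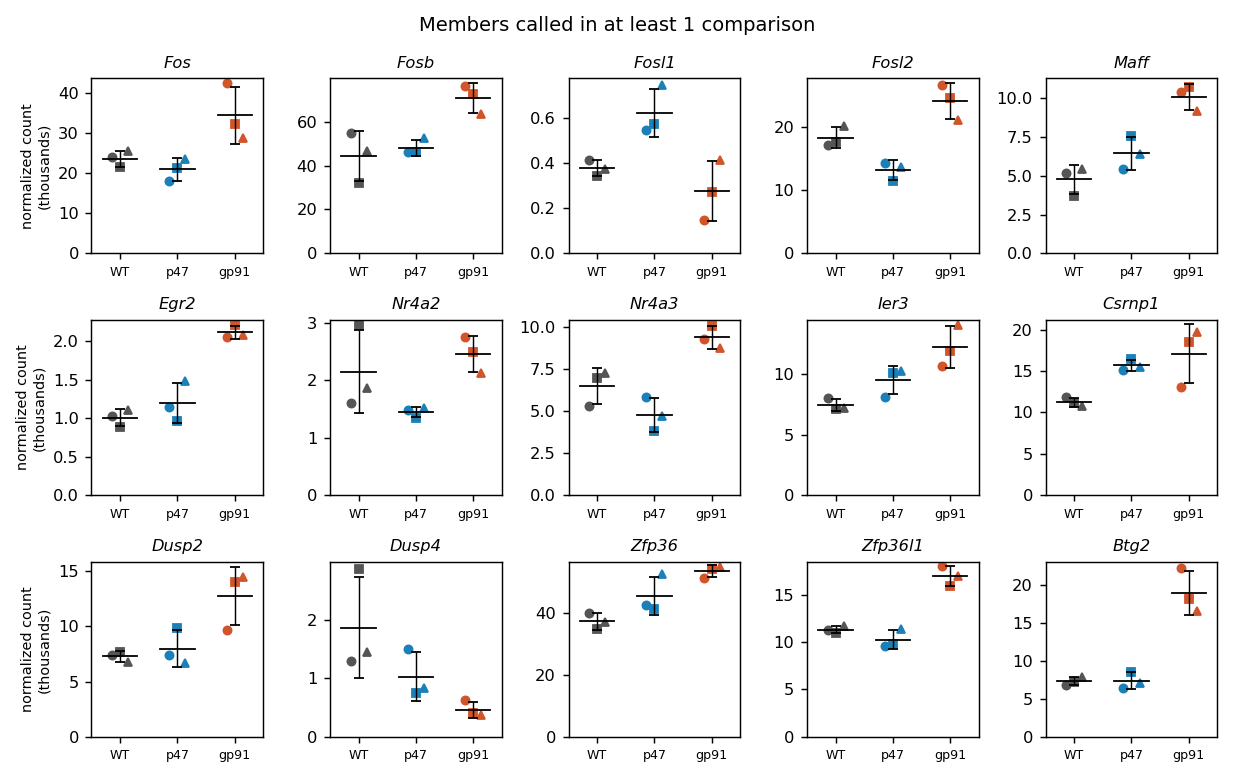
Normalized counts (linear axes from 0, scaled as labelled) of the members called in at least 1 comparison, for WT, p47phox-/- (p47) and gp91phox-/- (gp91), with a point per library shaped by replicate number, a line for the mean and bars for the SD (n = 3). Btg2, Egr2, Maff and Zfp36l1 stand apart in gp91phox-/-, Dusp4 is lowest there, and the means of Fosl2 and Nr4a3 are lowest in p47phox-/-.

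Of the remaining regulators, Ier3, an inhibitor of apoptosis induced by NF-kB and ERK, and Csrnp1, a nuclear protein induced by AXIN1, rose in gp91phox-/-. Ier3 had 8058, 7147 and 7206 normalized counts in WT, 8145, 10122 and 10259 in p47phox-/- and 10650, 11939 and 14112 in gp91phox-/-. The genotypes did not overlap, with WT lowest and gp91phox-/- highest. Its rise in gp91phox-/- was 1.63-fold (log2 fold change 0.70, limma adjusted p = 0.0102), lost without gp91phox-/- replicate 3 (adjusted p = 0.0517). Csrnp1 had 11817, 11183 and 10731 in WT, 15177, 16420 and 15500 in p47phox-/- and 13017, 18480 and 19744 in gp91phox-/-. All knockout libraries were above all WT libraries, and the knockouts overlapped. Csrnp1 rose in gp91phox-/- by 0.58 (adjusted p = 0.0416), lost without any 1 WT or gp91phox-/- replicate apart from gp91phox-/- replicate 1, and without replicate 1 or 3 of p47phox-/- (adjusted p = 0.055 to 0.168). In p47phox-/- it was not called (0.48, adjusted p = 0.161). Ier2 and Ier5, nuclear regulators of early transcription, had log2 fold changes of 0.19 and 0.50 in gp91phox-/- versus WT (adjusted p = 0.496 and 0.0531), and Ier5 was called in 10 of 23 alternatives. The growth regulator Myc (-0.35, adjusted p = 0.261) and the endosomal GTPase gene Rhob (0.13, adjusted p = 0.753) were not called there.

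The 6 heat shock members, 0 of which were called in any comparison, varied widely between libraries of a genotype. Their median SD within genotypes was 0.789 on the log2 scale, against 0.218 for the other members and 0.307 for all genes tested. In p47phox-/- versus WT all 6 log2 fold changes were below 0 (median -0.32, median SE 0.47). In gp91phox-/- versus WT 4 of 6 were above 0 (median 0.23), while Hspb1 was at -0.98 (limma adjusted p = 0.384). The 6 varied together between libraries, so their signs are not independent. Their values in every library are given although they were singled out after being seen. Hspa1b, an inducible HSP70, had 109619, 40107 and 112782 normalized counts in WT, 43048, 82052 and 94739 in p47phox-/- and 197046, 87874 and 61640 in gp91phox-/-. WT replicate 2 and p47phox-/- replicate 1 were low and gp91phox-/- replicate 1 high, and the genotypes overlapped. In gp91phox-/- versus WT its log2 fold change was 0.37 (95% interval -0.65 to 1.39, limma adjusted p = 0.716). Hspa1a, its near-identical neighbour, had 79608, 29113 and 77715 in WT, 31430, 71184 and 71794 in p47phox-/- and 147324, 62182 and 43333 in gp91phox-/-. The ratio of Hspa1b to Hspa1a was 1.15 to 1.45 over libraries, and how reads were split between the pair is uncertain, since the genes are near-identical copies (247 of 250 positions upstream of their starts are the same).

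Within their genotypes, WT replicate 2 and p47phox-/- replicate 1 were also lowest, and gp91phox-/- replicate 1 highest, for the other chaperones. For Hsp90aa1 and Hspb1, gp91phox-/- replicate 1 was not the highest of all 9 libraries. Hsph1, an HSP110 that recharges HSP70 with ATP, had 42172, 13709 and 43130 normalized counts in WT, 11243, 30159 and 20729 in p47phox-/- and 51454, 29584 and 19447 in gp91phox-/-. The HSP40 gene Dnajb1 had 17282, 6511 and 14771 in WT, 6893, 20175 and 10726 in p47phox-/- and 21785, 15287 and 10797 in gp91phox-/-. Both repeated the low WT replicate 2 and p47phox-/- replicate 1, with gp91phox-/- replicate 1 highest and replicate 3 lowest of their genotype. Hsp90aa1, the inducible HSP90, had 89421, 41809 and 103956 in WT, 36757, 68762 and 61309 in p47phox-/- and 101855, 69177 and 51692 in gp91phox-/-. The small chaperone gene Hspb1 had 4177, 1007 and 2812 in WT, 751, 2607 and 2016 in p47phox-/- and 2434, 1093 and 583 in gp91phox-/-. In each of the 6, the highest library of a genotype exceeded the lowest by 1.87 to 4.17 times.

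**Figure D4:**
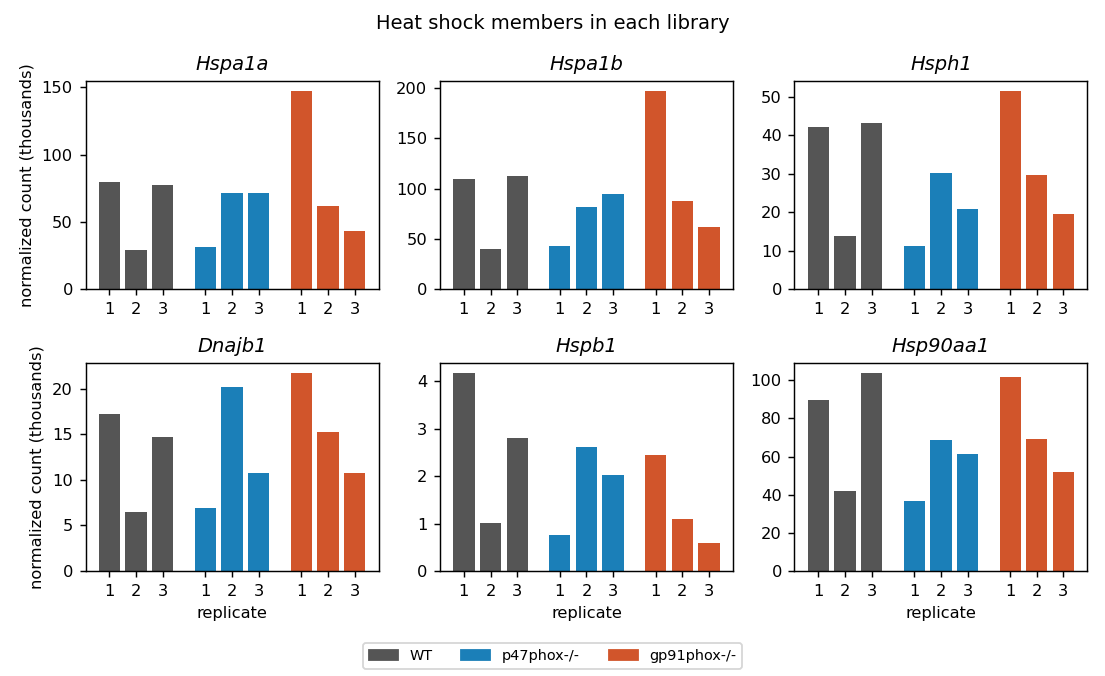
Normalized counts (bars, linear axes from 0, scaled as labelled) of the 6 heat shock members in replicates 1 to 3 of each genotype, coloured by genotype. In every panel WT replicate 2 and p47phox-/- replicate 1 are the lowest of their genotype and gp91phox-/- replicate 1 is the highest of its own.

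That order (WT replicate 2 and p47phox-/- replicate 1 lowest, gp91phox-/- replicate 1 highest and replicate 3 lowest) was read from these values and is a description. It was present in 6 of 6 heat shock members, in 8 of 34 others (Fos, Fosb, Jun, Junb, Jund, Atf3, Ier5 and Rhob) and in 3.25% of all genes tested. Of the 8, 6 were among the 9 AP-1 and bZIP genes, and 0 of the EGR, KLF or NR4A genes had it. Outside the members it was present in 10 of 28 other heat shock response genes (Hspa8, Hspa2, Hspd1, Hspe1, Hsp90ab1, Dnaja1, Dnaja4, Bag3, Ahsa2 and Cacybp) and in 3 of 42 other early response genes. Btg2, Maff, Egr2 and Zfp36l1 did not have the whole order, but Btg2, Maff and Zfp36l1 had most of it. Btg2 departed only in WT, where replicate 1 was lowest. Maff departed only in gp91phox-/-, where replicate 2 (10716) was just above replicate 1 (10441). Zfp36l1 departed only in gp91phox-/-, where replicate 2 was lowest, and Egr2 departed in both knockouts. The summed macrophage markers had the whole order, but with gp91phox-/- replicates 1 and 2 nearly level. Their sums were 793328, 591748 and 702099 normalized counts in WT, 687766, 902251 and 783509 in p47phox-/- and 868215, 866676 and 750224 in gp91phox-/-. Summed markers of T and innate lymphoid cells also had the order, with 14546, 7640 and 13384, then 11913, 13730 and 12369, then 14398, 12964 and 10615. Endothelial markers were lowest of WT in replicate 2 (7245, against 12905 and 13255) but lowest of p47phox-/- in replicate 2 and highest of gp91phox-/- in replicate 3. The 12 colon epithelium markers summed to 4301, 1820 and 1977 in WT, 1094, 2491 and 2243 in p47phox-/- and 4587, 2352 and 2671 in gp91phox-/-. These sums had the order except that replicate 2 was the lowest of gp91phox-/-. The part of these cells in the order was not tested. With the mean log2 level of the heat shock members as a covariate, an alternative chosen after seeing the data, 13 of the 34 other members were called in gp91phox-/- versus WT and 11 in gp91phox-/- versus p47phox-/-, including all 10 calls made without it in each. Over all genes tested, calls rose from 1016 to 1099 and from 1430 to 1506 of 14404 in the same fits.

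**Figure D5:**
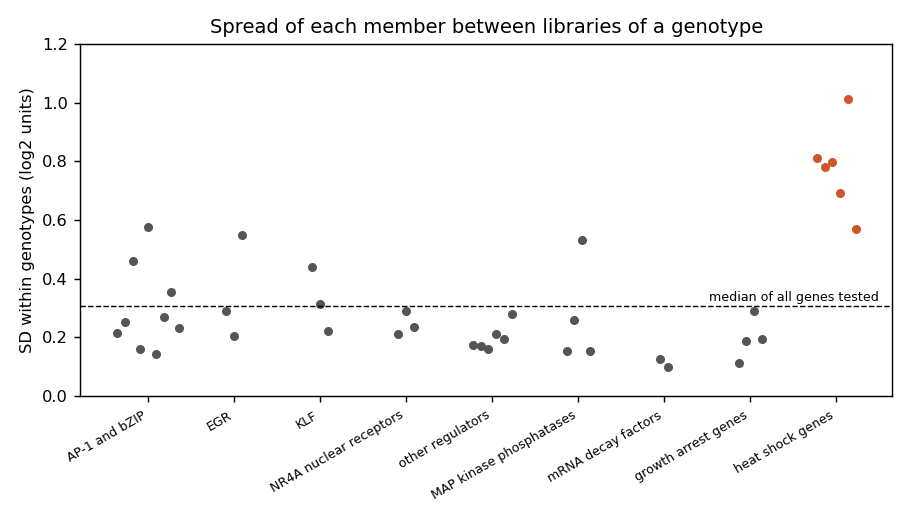
SD of each member within genotypes (log2 units, a point per gene) by class of gene, with a dashed line for the median of all genes tested (0.307). The heat shock members, in orange, have a median of 0.789, and both mRNA decay factors lie below the line.

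Genes of the same pathways outside the 40 were read from lists made with earlier results of these data known. Of 42 other early response genes tested, 1 rose and 0 fell in p47phox-/- versus WT, 6 rose and 2 fell in gp91phox-/- versus WT, and 5 rose and 3 fell in gp91phox-/- versus p47phox-/-, with medians of 0.05, 0.26 and 0.17. In that order 2.38%, 19.0% and 19.0% of the list were called, against 1.12%, 7.05% and 9.93% of all genes tested. The riser in p47phox-/- was Mafk, which encodes another small MAF protein. It had 8982 ± 776 normalized counts in WT, 18505 ± 551 in p47phox-/- and 8259 ± 662 in gp91phox-/- (SD, n = 3). Mafk rose in p47phox-/- by 1.05 (SE 0.12, limma adjusted p = 0.00301) and was lower in gp91phox-/- than in p47phox-/- by -1.17 (adjusted p = 9.98e-05), whereas its relative Maff rose in gp91phox-/-. The first of these calls was lost with p47phox-/- replicates 2 and 3 both left out (adjusted p = 0.0657). Ier5l, a relative of Ier5, was lower in gp91phox-/- than in p47phox-/- (-1.29, adjusted p = 0.0339), lost without WT replicate 1, any 1 library of p47phox-/-, or replicate 3 of gp91phox-/- (adjusted p = 0.05 to 0.117), and with p47phox-/- replicates 2 and 3 both left out (0.297).

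Of 28 other heat shock response genes, 0 were called in p47phox-/- versus WT, 1 fell in gp91phox-/- versus WT, and 2 rose and 1 fell between the knockouts. The shares called were 0%, 3.57% and 10.7%, against 1.12%, 7.05% and 9.93% of all genes tested. Of 26 upstream kinases and transcription factors, the counts were 0, then 0 higher and 1 lower, then 3 higher and 3 lower (0%, 3.85% and 23.1%). Crem, a cAMP-responsive factor of that list, had 4915 ± 788 normalized counts in WT, 3257 ± 736 in p47phox-/- and 7140 ± 1377 in gp91phox-/- (SD, n = 3). It was higher in gp91phox-/- than in p47phox-/- by 1.14 (limma adjusted p = 0.00271) in all 23 alternatives.

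A list of 19 early genes under NF-kB holds genes switched on in the same window as many of the members. Of these 19, 7 rose in p47phox-/- versus WT and 12 in gp91phox-/- versus WT, with 0 lower in either. Between the knockouts, 6 were higher and 4 lower in gp91phox-/- than in p47phox-/-. Over all genes tested, 0.625%, 2.53% and 3.97% were called higher in the same order, and 0.5%, 4.53% and 5.96% lower. The greatest rises in gp91phox-/- versus WT were, on the log2 scale, Ptgs2 (2.24), Nfkbiz (1.58), Il1b (1.55), Tnfaip3 (1.34), Ccl2 (1.32) and Ccl4 (1.30), and none of these calls was lost when any 1 library was left out. In p47phox-/- versus WT they were Cxcl1 (1.56), Ccl2 (1.43), Tnf (1.02), Cxcl2 (0.93) and Icam1 (0.88). With p47phox-/- replicates 2 and 3 both left out, all 5 lost their calls (limma adjusted p = 0.157 to 0.459). Cxcl1 kept its call with any 1 library left out. Ccl2 lost it without replicate 2 or 3 of WT, or replicate 3 of p47phox-/- (limma adjusted p = 0.0592 to 0.0765), and Icam1 without replicate 3 of WT or of p47phox-/- (adjusted p = 0.0501 to 0.0703). Tnf lost it without any 1 library of WT, replicate 2 or 3 of p47phox-/-, or replicate 2 of gp91phox-/- (adjusted p = 0.0544 to 0.125), and Cxcl2 without any 1 library of WT or p47phox-/-, or replicate 2 of gp91phox-/- (adjusted p = 0.0535 to 0.151). Between the knockouts, Ptgs2 (2.22) and Il1b (1.67) were higher and Cxcl1 (-1.12) lower in gp91phox-/-. With p47phox-/- replicates 2 and 3 both left out, Ptgs2 and Il1b were still called (limma adjusted p = 0.0372 and 0.00871) and Cxcl1 was not (0.112).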

How the data were processed

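Sequencing was of 9 libraries. Per the submitters' processing notes and the labels' protocols, base calls were demultiplexed by bcl2fastq 2.19, adapters were removed by Cutadapt, STAR 2.5.2b aligned reads to mm10, featureCounts counted them and DESeq2 was among the tools. What the authors deposited is a signal, normalized counts: reads over a size factor per library, from which whole reads were recovered for 100% of values (tolerance 0.01). The sources used here do not name the annotation or strand. The table's 8 unnamed columns hold no number and were not used. Members and lists were chosen with earlier results of these data known.

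Log2(normalized count + 1) values entered 1 limma fit of the 3 genotypes (limma 3.58.1, R 4.3.3) with an empirical Bayes trend and Benjamini-Hochberg adjustment over the 14404 genes that reached 10 normalized counts in 3 or more libraries. The fit was tested on simulated data. The labels do not say that libraries are separate animals, so p-values cover the spread between samples, which may be technical. Members called in any comparison are given per library, other members by mean, range or call, and pathway genes by up to 6 called genes per comparison with the greatest fold change and a mean of at least 50. Results were also computed in 22 other ways, with other pseudocounts, filters and scalings, DESeq2 1.42.0 and edgeR 4.0.16 on whole reads, a fit of the compared genotypes alone, a replicate block, no trend, array weights, and libraries left out (each in turn, and p47phox-/- replicates 2 and 3). A covariate of the heat shock level was added later. Positions and exon lengths are from GENCODE M21 (GRCm38), promoters from RefSeq (GRCm38.p6).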

Additional observations from a re-analysis of the deposited data

How the results depend on the processing

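No called member changed direction under any of the 23 alternatives. The number of members called, 0 in p47phox-/- versus WT, was 1 with DESeq2. The 10 in gp91phox-/- versus WT became 5 without a mean-variance trend and 6 to 12 when any 1 library was left out. The 10 in gp91phox-/- versus p47phox-/- became 5 without a trend, 6 to 12 when any 1 library was left out and 3 without p47phox-/- replicates 2 and 3. The cause was not tested, beyond the fewer libraries in each of the last fits. With the replicate number as a block the counts were 0, 7 and 9. Deviations of same-numbered libraries correlated weakly, at -0.0398 to 0.0763, while 5 of 9 libraries correlated best with one of their own number. These values do not settle whether the numbers pair the libraries. DESeq2 and edgeR gave 15 and 11 members in gp91phox-/- versus WT and 14 and 10 between the knockouts. Over all 14404 genes, calls in the same comparisons were 1016 and 1430 in the limma fit, 1771 and 2276 with DESeq2, 973 and 1315 with edgeR and 596 and 898 without a trend. Calls near the threshold (Fosb, Csrnp1 and Zfp36 in gp91phox-/- versus WT, each called in 10 of 23 alternatives) are the least stable. With 3 libraries per genotype and a median within-genotype SD of 0.789, the intervals of the heat shock members were wide. In gp91phox-/- versus WT the 95% interval was -0.80 to 0.74 for Hsp90aa1 and -2.27 to 0.32 for Hspb1. The smallest difference that could be detected was not computed. Reads per library, over 31141107, do not limit the members.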
